A study of Mus musculus with 56 samples.

Results

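Livers of daytime-fed and nighttime-fed mice were compared for the cytochrome P450 genes of families CYP1, CYP2 and CYP3, the families that carry out most oxidative drug metabolism. The genes were chosen by name, as every gene of the table whose GENCODE mouse symbol begins with Cyp1, Cyp2 or Cyp3 followed by a subfamily letter and a number. Pseudogenes were left out. The rule gave 49 genes of the 25410 that could be used, and all 49 passed the filter on low values. They comprise 3 CYP1, 4 CYP2A, 3 CYP2B, 13 CYP2C, 7 CYP2D, 4 CYP2J and 9 CYP3A genes, Cyp2e1, and 5 other CYP2 genes. A further 11 annotated genes of these families were not listed in the table.

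The animals were female C57BL/6J mice, 9 weeks old, kept under 12 h of light per day. For 7 days food was given by day in daytime-restricted feeding (DRF) or by night in nighttime-restricted feeding (NRF), the reference regimen. Collection times are zeitgeber times (ZT, in hours from lights on) of 0, 4, 8, 12, 16, 20 and 24, with 4 animals for each time and regimen, which gave 56 libraries in 14 groups, 28 per regimen. All groups shared strain, sex, age, chow and lighting, and differed in the phase of feeding and the time of collection.

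P450 enzymes of these families sit in the endoplasmic reticulum of hepatocytes, take electrons from P450 reductase (POR) and oxidise drugs, steroids, fatty acids and bile acids. Many are switched on by nuclear receptors that sense foreign compounds. The constitutive androstane receptor (CAR) is best known for Cyp2b10, the pregnane X receptor (PXR) for Cyp3a11 and the aryl hydrocarbon receptor (AHR) for Cyp1a1 and Cyp1a2. The PAR bZIP factors DBP, TEF and HLF pass clock rhythms on to CAR, POR and several P450 genes, and in mice sex-dependent growth hormone pulses make some of these genes female-predominant.

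Values are scaled counts, linear values recovered from the deposited table. They compare animals for the same gene, and levels were compared between genes only per kilobase of exon. Each library held 323 to 728 M recovered counts, with M for 1000000 counts. Hepatocyte markers (Alb, Apoa1, Ttr, Serpina1a and Cps1) summed to between 97499 and 154757 scaled counts in all libraries. Of these 5, Apoa1 and Serpina1a were lower under DRF in daily mean (-0.33 and -0.17 log2, limma) and Cps1 was higher (0.24 log2). The 4 blood markers were higher under DRF in daily mean, with summed levels of 401 to 1408 (median 709) against 316 to 870 (median 511). The part of both marker lists in the results was not tested. Of 26 markers of bile duct, Kupffer, endothelial, stellate, lymphoid and pancreatic cells, 0 passed the limma test of the daily mean, with 5 at an unadjusted p under 0.05. The library of NRF ZT0 replicate 1 stood apart. It was the lowest of 28 NRF libraries for Cyp2a4, Cyp2b9, Cyp2b13, Cyp2c39, Cyp3a16, Cyp3a41a, Cyp3a41b and Cyp3a44 and the highest for Cyp2c40 and Cyp2c69. The same library was also the lowest for Cyp2a22 and the highest for Cyp2c67 and Cyp2c68. Xist, which female cells transcribe, was at 68.9 to 181 scaled counts in all 56 libraries. Some results below are given with and without NRF ZT0 replicate 1, while the rhythms of single genes are given with it alone.

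Promoter stretches are shown first for Cyp2a4, Cyp2b10 and Cyp3a44, whose daily means changed strongly, each beside a related gene of its cluster that changed less. The pairs were chosen after their values were seen. Upstream sequences came from RefSeq (GRCm38.p6), which held 250 bases before the start site for 43 of the 49 genes. For Cyp2c39 the sequence (chr19:39347096-39347345) lies far upstream of the gene as GENCODE places it (chr19:39510862-39568529), and it is counted among the 43. Each stretch below runs from 130 to 39 bases before the start site in the direction of transcription. In the CYP2A and CYP2B genes, capitals mark TTGCATAA, a site type shared by PAR bZIP and C/EBP factors, or in Cyp2b9 its form that differs at 1 base. The substitution there is C4T, counted from 1 at the 5′ end of TTGCATAA. Cyp2b13, which was higher under DRF and rhythmic under both regimens, has the same form and the same letters as Cyp2b9 over the whole stretch (at chr7:26061365-26061456). Cyp2a4 is at chr7:26307062-26307153, Cyp2a5 at chr7:26835209-26835300, Cyp2b10 at chr7:25897528-25897619 and Cyp2b9 at chr7:26173279-26173370, all on the plus strand.
Cyp2a4: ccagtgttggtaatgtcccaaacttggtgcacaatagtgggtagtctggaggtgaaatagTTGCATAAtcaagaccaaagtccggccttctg
Cyp2a5: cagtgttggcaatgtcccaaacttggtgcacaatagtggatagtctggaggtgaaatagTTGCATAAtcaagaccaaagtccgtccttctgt
Cyp2b10: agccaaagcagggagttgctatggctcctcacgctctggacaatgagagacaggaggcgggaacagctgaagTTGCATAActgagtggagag
Cyp2b9: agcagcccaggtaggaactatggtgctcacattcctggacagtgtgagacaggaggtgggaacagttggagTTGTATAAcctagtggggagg
In the CYP3A genes, capitals mark CAAAGTCCA, a site type of HNF4, or in Cyp3a44 the form with the substitution C7A, counted in the same way. Such forms are not particular to Cyp3a44. One with A9G stands unmarked in the stretches of Cyp2a4 and Cyp2a5, and one with C8T lies upstream of the stretches of Cyp2b9 and Cyp2b13. Cyp3a41a is at chr5:145720175-145720266 and Cyp3a44 at chr5:145805913-145806004, both on the minus strand.
Cyp3a41a: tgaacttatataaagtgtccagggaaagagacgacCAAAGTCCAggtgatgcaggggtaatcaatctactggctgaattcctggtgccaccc
Cyp3a44: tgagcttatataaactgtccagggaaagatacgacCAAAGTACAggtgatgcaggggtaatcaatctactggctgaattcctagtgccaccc

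Both strands of the 250 upstream bases were searched for fixed letters. TTGCATAA, added to the search after these sequences had been read, stood in 0.744% of 27025 promoters and in 3 of the 43, those of Cyp2a4, Cyp2a5 and Cyp2b10. CAAAGTCCA stood in 0.381% of promoters and in 9 of the 43: Cyp2c40, Cyp2c67, Cyp2c68, Cyp2c69, Cyp2c70, Cyp3a11, Cyp3a16, Cyp3a41a and Cyp3a41b. The D-box letters TTATGTAA (0.862% of promoters), their variant TTACGTAA (0.0999%) and the C/EBP letters TTGCGCAA (0.17%) were in 0 of the 43. The E-box CACGTG (6.05%) was in Cyp2j6, the xenobiotic response element TNGCGTG (4.16%) in Cyp2c68 and the ROR element TAGGTCA (2.27%) in Cyp3a11. Many of these promoters are copies of one another and share letters by descent. The upstream sequences of Cyp2a4 and Cyp2a5 were identical at 245 of 249 aligned bases (98.4%), those of Cyp2b9 and Cyp2b10 at 182 of 240 (75.8%), and those of Cyp3a41a and Cyp3a44 at 236 of 250 (94.4%). A match is a string of letters and says nothing here about binding.

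The first question was whether inverting the feeding phase changed how much of each transcript was present over the day. Daily means were compared as rhythm-adjusted means on log2(scaled count + 1) with limma, adjusted by Benjamini-Hochberg over all 25410 genes. Of the 49 P450 genes, 25 differed, 17 higher and 8 lower under DRF, beside 6.82% of all genes (4.13% higher and 2.7% lower). The 2 sets differ in level: 13751 of the 25410 genes had a mean of at least 1 scaled count, and 5 of the 49 were under 1. Here and below, shares were not compared at matched levels. The median difference was 0.09 log2 over the 49 genes and 0.00 over all genes. The changes ran from -1.91 log2 for Cyp3a44 to 1.19 log2 for Cyp2b10. In whole liver, fewer cells of a type and less RNA per cell cannot be told apart.

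**Figure D1:**
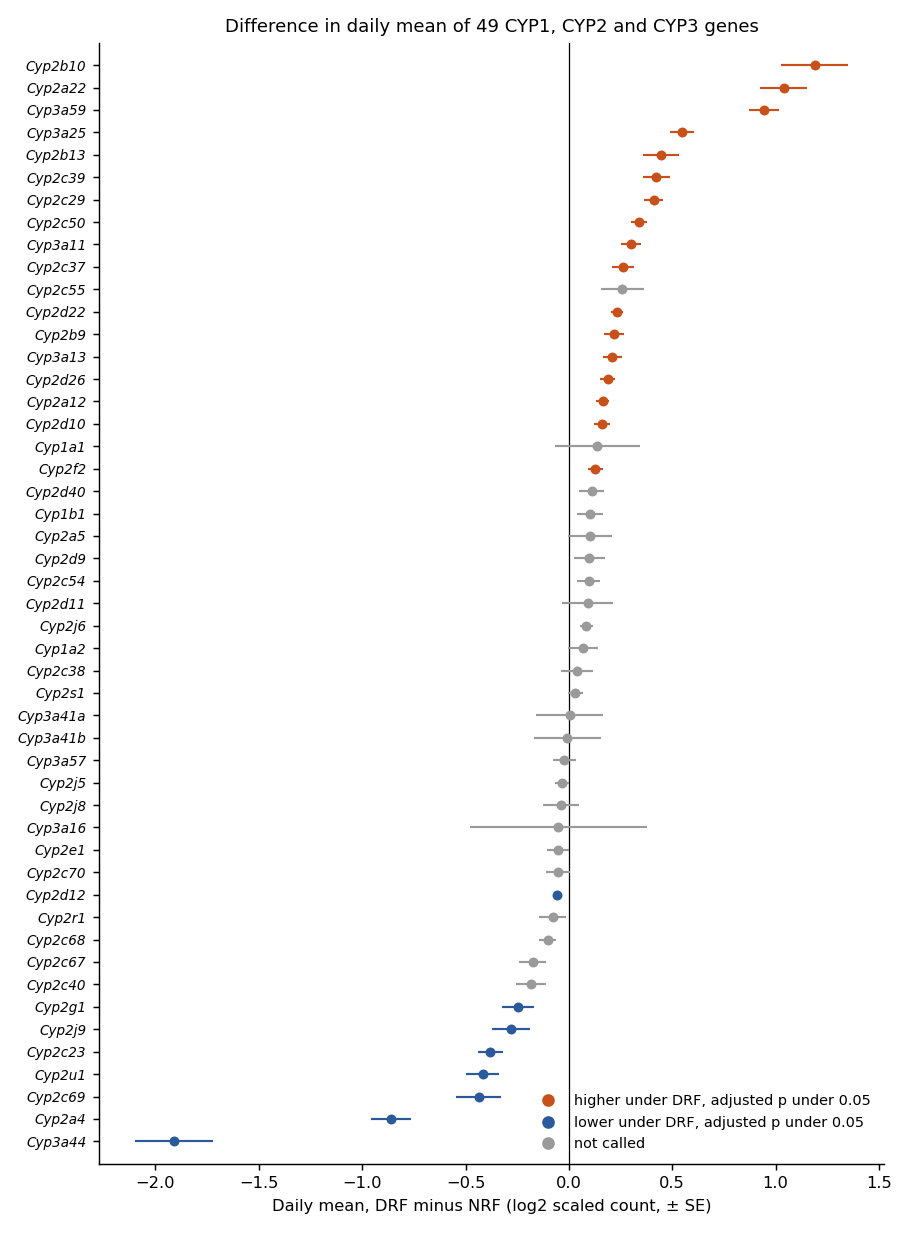
Difference in daily mean, DRF minus NRF, in log2 scaled counts, for each of the 49 genes from 56 libraries. Points are estimates, bars are standard errors, and colour marks the 17 genes that were higher, the 8 that were lower and the 24 that were not called. Cyp3a44 and Cyp2a4 lie far to the left, and Cyp2b10, Cyp2a22 and Cyp3a59 far to the right.

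The CYP3A genes went in opposite directions. Cyp3a44 (chr5:145773983-145805874, GRCm38, minus strand), a female-predominant gene, ranged from 21.1 to 236 (median 86.4) under DRF and from 99.3 to 812 (median 377) under NRF. The ranges overlapped, but all 7 DRF group means were lower than the NRF mean of the same time. Its mean was 97.0 against 382 scaled counts, 3.93-fold lower under DRF, with a daily mean difference of -1.91 ± 0.19 log2 (SE; limma, adjusted p = 4.39e-10). Without NRF ZT0 replicate 1 the difference was -1.95. At ZT24 the DRF animals had 41.1, 58.2, 84.2 and 59.4 scaled counts and the NRF animals 202, 457, 574 and 355, with no overlap (6.54-fold lower, -2.63 ± 0.48 log2, limma adjusted p = 6.68e-05). Of its time points, ZT4 alone did not pass the test.

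Cyp3a59 (chr5:146079257-146113287, plus strand) moved the other way. Its levels were 148 to 299.7 (median 219.5) under DRF and 81.3 to 180.5 (median 104) under NRF, and the difference passed at all 7 times. At ZT0 the DRF values were 299.7, 252, 207 and 233 and the NRF values 97.8, 98.5, 95.7 and 90.7, with no overlap (2.59-fold by means, 1.35 ± 0.18 log2, limma adjusted p = 2.68e-07). The daily mean difference was 0.94 ± 0.07 log2 (limma adjusted p = 7.12e-14). Cyp3a25, its neighbour on chromosome 5 at chr5:145977194-146009618, averaged 1714 against 1155 scaled counts (0.55 ± 0.06 log2, limma adjusted p = 3.54e-09). Cyp3a59 shared 0.649% and Cyp3a25 0.586% of their 150-base transcript windows with other genes, and Cyp3a44 shared 0%, counting exact matches. How reads that fit several copies were counted is not given in the sources used here.

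Cyp3a11, the main PXR target and a chief drug-oxidising CYP3A of mouse liver, averaged 2750.5 scaled counts under DRF and 2291 under NRF (0.30 ± 0.05 log2, limma adjusted p = 1.72e-05). At ZT12 its DRF values were 3107, 3546, 2861 and 2564 and its NRF values 2009.5, 1880.4, 2177 and 2253, which did not overlap (1.45-fold, limma adjusted p = 0.00223). Cyp3a13, the other CYP3A gene on the list of PXR targets used here, was also higher (0.21 ± 0.05 log2). Cyp3a41a, a female-predominant gene that shares 82.9% of its windows with Cyp3a41b, had a difference of 0.00 ± 0.16 log2 (limma adjusted p = 0.997), and the split of reads between the copies is uncertain. In all, 4 of 9 CYP3A genes were higher and 1 was lower.

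All 3 CYP2B genes rose under DRF. Cyp2b10 (chr7:25897620-25926624, plus strand), the gene that phenobarbital induces through CAR, showed its widest gap at ZT12. There the DRF animals had 385, 461, 335 and 332 scaled counts and the NRF animals 21.2, 49.1, 43.3 and 60.5, a 8.68-fold difference of means with no overlap (3.17 ± 0.38 log2, limma adjusted p = 1.89e-08). Over the day it averaged 363 against 201 scaled counts (1.19 ± 0.16 log2, limma adjusted p = 5.44e-07). Its replicates were uneven at the DRF maximum, with 1108, 629.8, 586 and 395 at ZT16 and 412, 647, 1111 and 332 at ZT20.

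Cyp2b13 and Cyp2b9, female-predominant members of the same cluster, changed less. Cyp2b13 stood at 1973, 1879.5, 1757 and 1641 scaled counts at ZT0 under DRF and at 362, 993, 1106 and 865 under NRF, of which the first value is the library that stood apart. The groups did not overlap with or without that library, and the daily mean difference was 0.44 ± 0.09 log2 (limma adjusted p = 0.000327), or 0.41 without it. Cyp2b9 was nearly level, with means of 2146 and 1859 scaled counts (0.22 ± 0.05 log2, limma adjusted p = 0.00166), or 0.20 log2 without that library, and the call was lost on the values as deposited (limma adjusted p = 0.0528). It did not pass the test at any single time.

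The CYP2A genes split. Cyp2a22 (chr7:26931631-26939384, minus strand) was higher, with 31.9 to 104 (median 64.0) scaled counts under DRF and 8.16 to 49.7 (median 31.0) under NRF (1.04 ± 0.11 log2, limma adjusted p = 3.69e-09). The value of 8.16 is from the library that stood apart, and the call held in all 14 alternatives, among them without that library. Cyp2a4 (chr7:26307169-26315088), a steroid hydroxylase that is female-predominant, averaged 289 against 524 scaled counts (-0.86 ± 0.10 log2, limma adjusted p = 7.04e-09). Cyp2a5 (chr7:26835305-26843548), the coumarin hydroxylase, did not pass, with 748 and 714 (0.10 ± 0.11 log2, limma adjusted p = 0.66). Cyp2a4 and Cyp2a5 shared 4.22% and 4.56% of their windows with other genes.

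Among the CYP2C genes 4 of 13 were higher and 2 lower. Cyp2c29, a CAR target of pericentral hepatocytes, averaged 2782 against 2179 scaled counts (0.41 ± 0.05 log2, limma adjusted p = 3.93e-09). At ZT12 the DRF values were 2852, 3037, 3002 and 2683 and the NRF values 1399, 1971, 1493 and 1662, which did not overlap (1.77-fold, limma adjusted p = 6.75e-07). Cyp2c69, a female-predominant gene, averaged 1225 against 1664 (-0.44 ± 0.11 log2, limma adjusted p = 0.00697), or -0.42 without NRF ZT0 replicate 1, and shared 20.2% of its windows with other genes. Its call was lost without replicate 1 or 3 of every group (limma adjusted p = 0.123 and 0.183) and on the values as deposited (0.122). Cyp2c54, Cyp2c68 and Cyp2c70, 3 of the most abundant CYP2C transcripts, had differences of 0.10 ± 0.06, -0.10 ± 0.04 and -0.05 ± 0.06 log2, and none of them passed.

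Of the remaining subfamilies, 3 of 7 CYP2D genes were higher and 1 was lower, 1 of 4 CYP2J genes was lower, and 1 of the other 5 CYP2 genes was higher and 2 were lower. The lower CYP2D and CYP2J genes, named after their values were seen, were low in level. Cyp2d12 averaged 0.0881 under DRF and 0.125 under NRF (limma adjusted p = 0.0342), and Cyp2j9 averaged 2.51 and 3.29 (limma adjusted p = 0.0463). Cyp2e1, the ethanol-oxidising enzyme, had nearly equal means of 4666 and 4709 scaled counts (-0.05 ± 0.05 log2, limma adjusted p = 0.636). Cyp2f2, a periportal enzyme that oxidises naphthalene, was slightly higher (0.13 ± 0.04 log2, limma adjusted p = 0.023), and 13.5% of its exon bases overlap genes on the other strand. Its call was lost in 5 of 14 alternatives, among them without replicate 1, 3 or 4 (limma adjusted p = 0.0795, 0.108 and 0.172). Cyp2d22 was higher by 0.23 ± 0.03 log2, and Cyp2d9, known as male-predominant, stood at 14.1 and 12.9 scaled counts (0.10 ± 0.08 log2, not passing). Cyp2g1, a gene best known from the olfactory mucosa, was low at 2.56 and 3.19 (-0.25 ± 0.08 log2, limma adjusted p = 0.0387). That call was lost in 7 of 14 alternatives, among them without any 1 replicate number (limma adjusted p from 0.0844 to 0.169). Among the 3 CYP1 genes, the AHR targets, 0 passed the limma test and 0 had an unadjusted p under 0.05, and Cyp1a2 had a difference of 0.07 ± 0.07 log2.

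By regulator and zone, 6 of 8 classical CAR targets and 2 of 3 PXR targets were higher in daily mean, with median differences of 0.30 and 0.26 log2. Of 8 pericentral genes 4 were higher (median 0.18 log2). The 11 female-predominant genes did not move together, since 4 were higher (Cyp2b9, Cyp2b10, Cyp2b13 and Cyp2c39), 3 were lower (Cyp2a4, Cyp2c69 and Cyp3a44) and 4 were not called. These counts stand beside 17 higher and 8 lower of the 49 genes, and 4.13% higher and 2.7% lower of all genes. The lists share members and were drawn up with earlier results of these data known, so their counts are a description.

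The second question was at which times of day the regimens differed. At ZT0 18 of the 49 genes differed, beside 16% of all genes, and at ZT4 14 did, beside 20.3%. ZT8 gave 16 genes (13% of all), ZT12 gave 14 (15.2%), ZT16 gave 16 (15.2%), ZT20 gave 11 (13.7%) and ZT24 gave 15 (14%). At ZT4 the share of P450 genes was 28.6%, near that of all genes. Over the day 36 of the 49 genes differed at 1 or more times (limma F test), beside 42.5% of all genes.

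**Figure D2:**
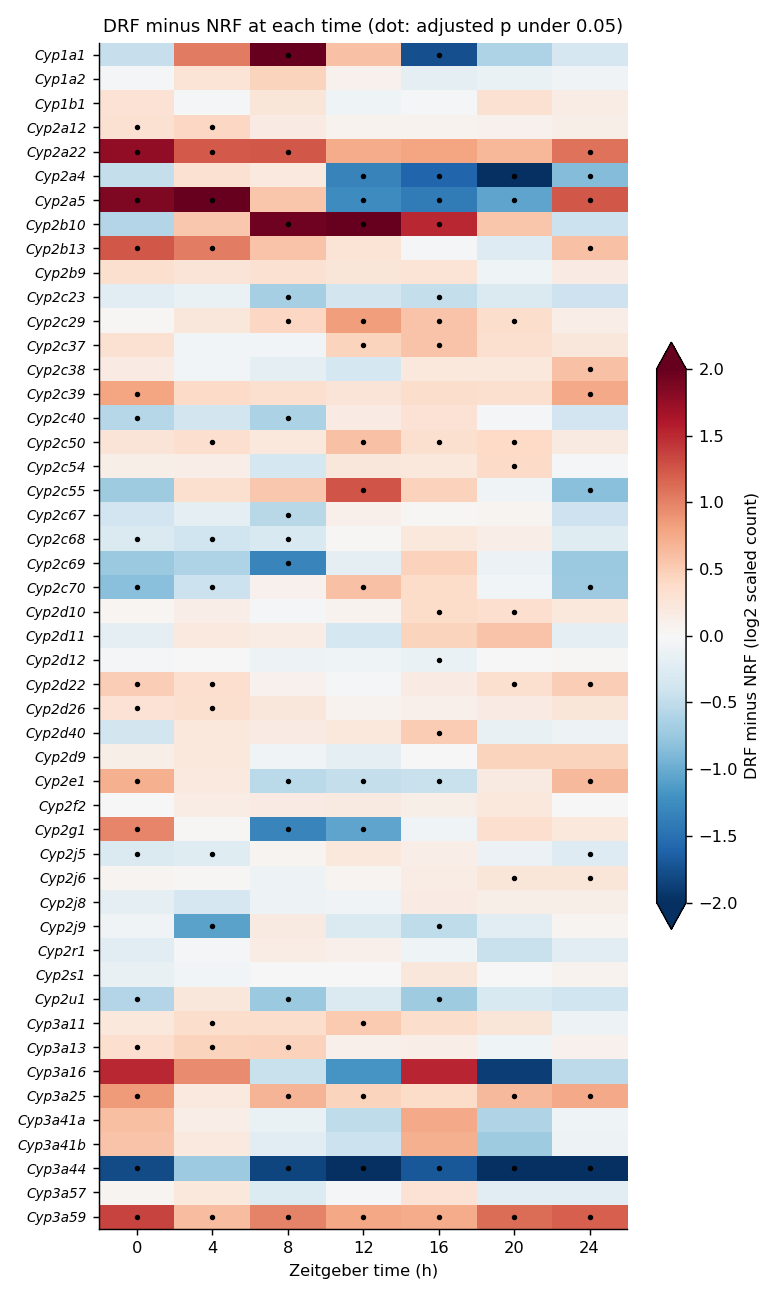
DRF minus NRF at each zeitgeber time (h, horizontal) for the 49 genes (vertical), in log2 scaled counts from 4 against 4 animals. Red is higher and blue lower under DRF, the colours stop at 2 log2 either way, and a dot marks an adjusted p under 0.05. Cyp3a59 is red at all 7 times, Cyp3a44 is blue at all 7, and Cyp2a5 turns from red at ZT0 and ZT4 to blue at ZT12, ZT16 and ZT20.

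Some genes changed direction within the day. Cyp2a5 under DRF had 1042, 1043, 1049 and 918 scaled counts at ZT4, against 326, 462, 139 and 164 under NRF (3.71-fold higher, 2.06 ± 0.26 log2, limma adjusted p = 6e-08). At ZT16 the order was reversed, with 549.8, 406, 470.2 and 548 under DRF and 1147, 1573, 1136 and 1364 under NRF (2.64-fold lower, -1.40 ± 0.26 log2, limma adjusted p = 0.000114). Neither pair of groups overlapped. Its close copy Cyp2a4 showed no called difference at ZT4, with 334, 472, 389 and 248 and 292, 278, 288 and 276, and the groups overlapped. By ZT20 it was at 171, 202, 186 and 123 under DRF and 747, 781, 609 and 778 under NRF (4.28-fold lower, -2.11 ± 0.25 log2, limma adjusted p = 2.96e-08).

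Cyp2e1, the most abundant of the 49 transcripts per kilobase, was higher under DRF at ZT0, with 5749, 5154, 4633 and 5390.4 scaled counts against 3354, 3168, 2712 and 3579.5 (1.63-fold, limma adjusted p = 0.000107). It was lower at ZT8, with 4553, 4899, 4189 and 3792 against 6223, 7362, 5630.3 and 6129 (1.45-fold lower, limma adjusted p = 0.00399). Neither comparison overlapped, and the differences had opposite signs.

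Cyp2c70, which makes muricholic acids in mouse bile acid synthesis, was lower under DRF at ZT0, with 1216, 1099.7, 1202 and 1197 scaled counts against 2426, 2027, 1882 and 2073 (1.78-fold lower, limma adjusted p = 1.36e-05). At ZT12 it was higher, with 1707, 2329, 2307 and 2425 against 1140.3, 1365, 1545 and 1831, which overlapped (1.49-fold higher, limma adjusted p = 0.00197). Cyp2g1 was low in every library. It was higher under DRF at ZT0 (0.98 ± 0.15 log2) and lower at ZT8 (-1.33 ± 0.15 log2), where 4 DRF animals had 2.57, 2.0, 1.44 and 2.16 and 4 NRF animals 5.41, 6.89, 8.03 and 6.14 scaled counts.

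**Figure D3:**
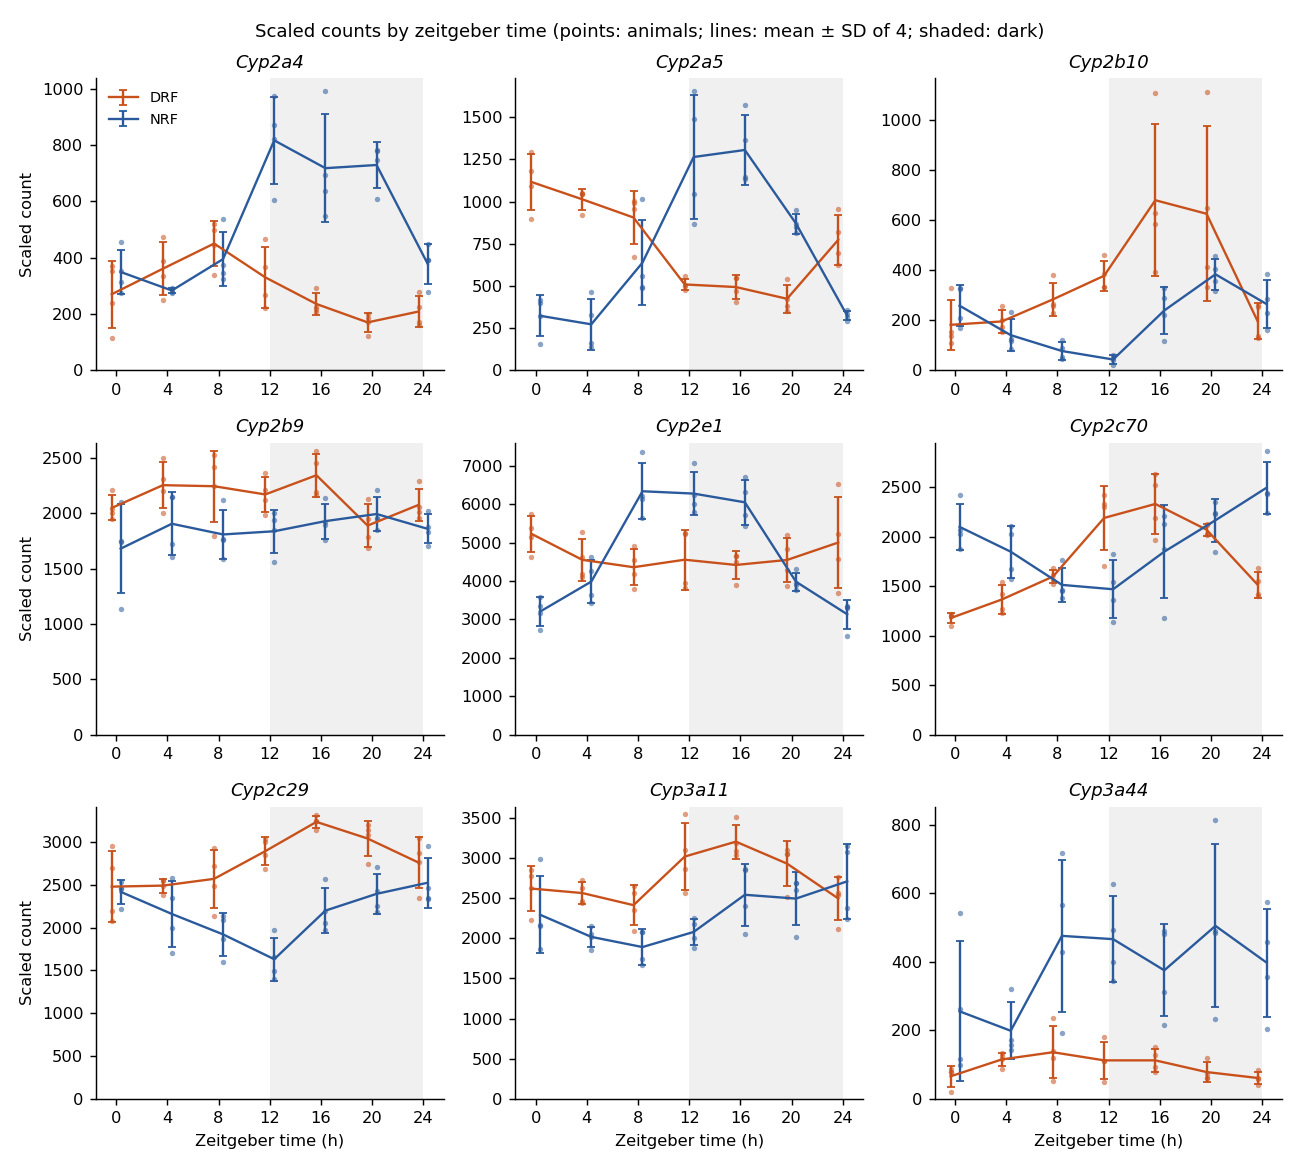
Scaled counts (vertical, from 0) by zeitgeber time (h, horizontal) for 9 genes under DRF and NRF. Points are animals, lines join means of 4 with SD bars, the regimens are set slightly apart sideways, and the dark phase is shaded. Cyp2a5 and Cyp2e1 cross between regimens, Cyp2b10 under NRF falls to its lowest level at ZT12, and Cyp3a44 under DRF stays below NRF.

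Cyp1a1, named here after its values were seen, was near 1 scaled count in most groups but not in all. Under DRF it reached 6.0, 5.24, 9.46 and 6.23 at ZT8, against 0.557, 0.769, 0.862 and 0.719 under NRF (9.26-fold higher, 2.14 ± 0.45 log2, limma adjusted p = 0.000589). At ZT16 under NRF it was 1.39, 33.4, 1.46 and 39.3, so 2 of 4 animals carried the whole rise of that group. The DRF animals had 2.19, 1.55, 2.10 and 1.44 there, and the difference was called as lower under DRF although the groups overlapped. The same 2 NRF animals were also the highest of that group for Cyp1b1 and Cyp1a2. Cyp1a2, the caffeine-oxidising enzyme, was not called at any of the 7 times.

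The third question was whether the genes oscillated and whether feeding moved their peaks. Of the 49 genes, 27 had a 24-h rhythm under DRF and 24 under NRF (limma F test of the cosine and sine terms, adjusted p under 0.05), beside 34.9% and 43.6% of all genes. Dual-oscillating genes, rhythmic under both regimens, numbered 17, beside 23.2% of all genes. DRF was the single regimen with a rhythm for 10 genes and NRF for 7 (11.8% and 20.4% of all genes), and 15 passed under neither (44.7%). Passing under a single regimen does not show that the rhythms differ, which was tested directly. That test called 23 of the 49 genes, beside 38.8% of all genes.

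Peak shifts of the dual-oscillating genes spread from 0.134 to 10.5 h. Shifts are given as distances up to 12 h, phase-locked up to 4 h and phase-inverted from 8 h. The median shift was 6.06 h over the 17 genes and 8.14 h over all dual-oscillating genes, a difference that was not tested. Of the 17 genes, 6 were phase-locked, 7 shifted by 4 to 8 h and 4 were phase-inverted. Of the 5889 dual-oscillating genes of the whole table these classes held 24.5%, 24.6% and 50.9%. The shifts of Cyp2a4, Cyp2b13, Cyp2c70, Cyp1a1 and Cyp2g1 lay within an SE of the limit at 8 h. Those of Cyp3a11 and Cyp3a59 lay within an SE of the limit at 4 h, so the classes of these genes are uncertain.

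**Figure D4:**
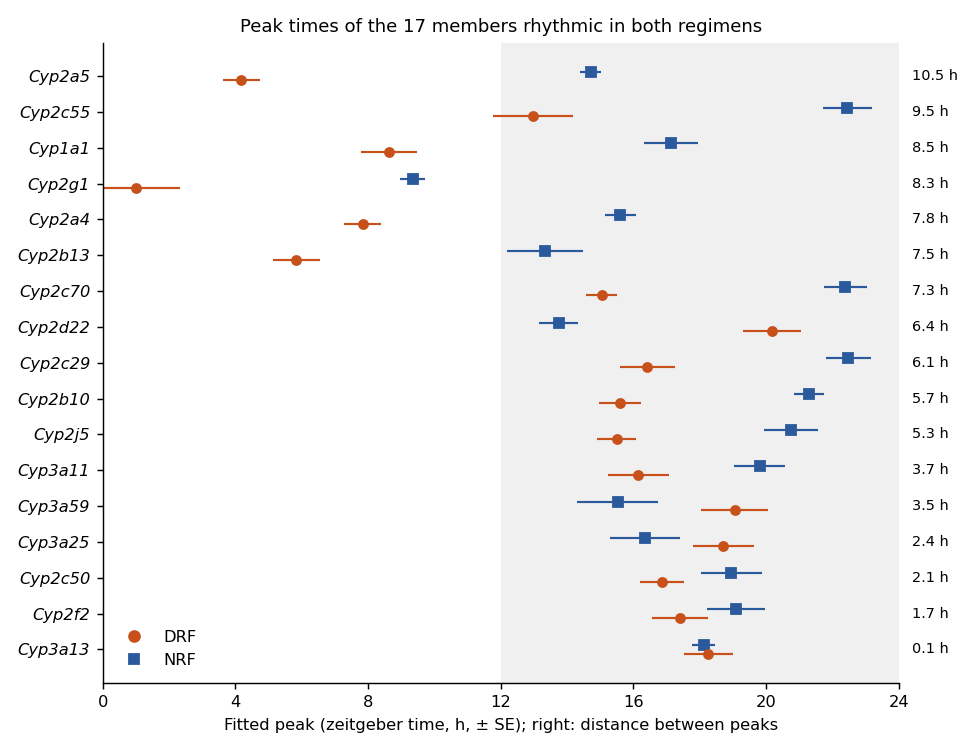
Fitted peak times (zeitgeber time, h) with standard errors for the 17 genes rhythmic under both regimens, DRF as circles and NRF as squares, with the distance between them at the right and the dark phase shaded. Genes are ordered from Cyp2a5 (10.5 h) to Cyp3a13 (0.134 h), and the CYP3A genes lie at the locked end.

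The phase-inverted genes were Cyp2a5, Cyp2c55, Cyp1a1 and Cyp2g1. The NRF peak of Cyp1a1, at 17.1 ± 0.807 h, lay near ZT16, where 2 of 4 animals carried the rise (33.4 and 39.3 scaled counts). Whether its NRF rhythm and shift hold without these 2 animals was not tested. The DRF peak of Cyp2a5 was at 4.18 ± 0.564 h and its NRF peak at 14.7 ± 0.317 h, 10.5 h apart, and its amplitude was 0.69 against 1.29 log2 (rhythm difference, limma adjusted p = 6.53e-15). Cyp2c55, a CAR and PXR target, peaked at 13.0 ± 1.2 h and 22.5 ± 0.727 h (shift 9.48 h, limma adjusted p = 3.55e-06). Cyp2g1 peaked at 1.01 ± 1.31 h and 9.34 ± 0.372 h, with an amplitude of 0.24 under DRF and 0.80 under NRF (limma adjusted p = 4.48e-10).

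Shifts of 4 to 8 h were found for Cyp2a4, Cyp2b10, Cyp2b13, Cyp2c29, Cyp2c70, Cyp2d22 and Cyp2j5. Cyp2a4 had its DRF peak at 7.84 ± 0.556 h and its NRF peak at 15.6 ± 0.466 h (shift 7.76 h, limma adjusted p = 5.35e-09). Cyp2b10 peaked at 15.6 ± 0.627 h and 21.3 ± 0.45 h (shift 5.71 h, amplitudes 0.97 and 1.40 log2, limma adjusted p = 5.61e-08). Both its peaks lay in the dark phase, although animals ate in the dark under NRF alone. Cyp2c29 moved from 22.5 ± 0.674 h under NRF to 16.4 ± 0.835 h under DRF (shift 6.06 h, limma adjusted p = 3.7e-05) and Cyp2c70 from 22.4 ± 0.647 h to 15.0 ± 0.464 h (shift 7.35 h, limma adjusted p = 9.7e-10). Cyp2d22 peaked later under DRF, at 20.2 ± 0.889 h against 13.7 ± 0.592 h (shift 6.43 h, limma adjusted p = 4.23e-06).

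The phase-locked genes were Cyp2c50, Cyp2f2 and 4 CYP3A genes. Cyp3a11 had its DRF peak at 16.1 ± 0.918 h and its NRF peak at 19.8 ± 0.773 h (shift 3.66 h, limma adjusted p of the rhythm difference = 0.035). Cyp3a25 and Cyp3a59 shifted by 2.35 h and 3.53 h, with peaks between 15.5 and 19.1 h, and their rhythm differences did not pass (limma adjusted p = 0.377 and 0.176). Cyp2f2 shifted by 1.68 h and its rhythm difference did not pass either.

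Some abundant genes oscillated under a single regimen. Cyp2e1 had an amplitude of 0.55 log2 and a peak at 11.9 ± 0.38 h under NRF, whereas under DRF the amplitude was 0.09 log2 and the rhythm did not pass (limma adjusted p = 0.337). Its rhythm difference passed (limma adjusted p = 2.17e-10). Cyp2c68 and Cyp2c69 did the opposite, with amplitudes of 0.35 and 0.54 log2 under DRF against 0.03 and 0.15 under NRF, and DRF peaks at 16.7 ± 0.43 h and 17.1 ± 0.729 h (rhythm difference, limma adjusted p = 4.84e-05 and 0.00205). Cyp2c54 was rhythmic under DRF as well, but its rhythm difference did not pass (limma adjusted p = 0.0593). Of the 27 genes rhythmic under DRF, 21 peaked between 12 and 24 h, the fasting phase of that regimen, beside 48.2% of all genes rhythmic under DRF. These hours are also the dark phase and the feeding phase of NRF. Of the genes rhythmic under NRF, all but Cyp2c23, Cyp2d9, Cyp2e1 and Cyp2g1 peaked in the same hours. The share over all genes rhythmic under NRF was not computed. Cyp2b9 was rhythmic under neither, with amplitudes of 0.09 and 0.05 log2.

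The fourth question set animals at the same point of the feeding cycle, 12 h apart in the light cycle. The hours of food within the day or night are not given in the sources used here, so lights on was taken as the start of feeding under DRF and lights off under NRF. Over the 6 points 35 of the 49 genes differed at 1 or more (limma F test), beside 40.7% of all genes. At 4 h into fasting (DRF ZT16 against NRF ZT4) 24 of the 49 genes differed, 22 of them higher under DRF, beside 17.3% of all genes (9.51% higher). The median difference was 0.38 log2 over the 49 genes and -0.01 over all genes. At 8 h into fasting 20 differed, beside 16.3%, with 14 higher (7.88% of all genes) and 6 lower (8.44%). At the start of feeding 10 differed (5.54% of all genes), at 4 h into feeding 11 (14.7%), at 8 h into feeding 9 (11.6%) and at its end 10 (4.67%). At 4 h into feeding 9 of the 11 were lower under DRF, beside 5.81% of all genes.

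The fasting gap was widest for Cyp2b10. At 8 h into fasting DRF animals had 412, 647, 1111 and 332 scaled counts and NRF animals 87.7, 54.0, 122 and 46.0, which did not overlap (8.07-fold, 2.94 ± 0.38 log2, limma adjusted p = 4.45e-07). At 4 h into fasting it differed by 2.26 ± 0.38 log2, Cyp3a59 by 1.12 ± 0.18, Cyp3a25 by 0.67 ± 0.14, Cyp3a11 by 0.67 ± 0.13, Cyp2c29 by 0.60 ± 0.12 and Cyp1a2 by 0.61 ± 0.18 log2, all without overlap. Of the 8 pericentral genes 7 were higher at this point, Cyp2e1 being the exception, beside 22 of the 49 genes and 9.51% of all genes. Cyp2j9 and Cyp2u1, named after their values were seen, were the 2 that were lower (-0.95 ± 0.18 and -0.67 ± 0.16 log2). Cyp2a4 and Cyp3a44 went the other way at 8 h into fasting (-1.20 ± 0.25 and -2.50 ± 0.48 log2). The difference at a matched point holds the light phase as well as the regimen, which cannot be told apart here.

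ZT0 and ZT24 are the same time of day in different animals. Between them 2 of the 49 genes differed under DRF (Cyp2g1 and Cyp2c38) and 1 under NRF (Cyp3a13), beside 3.06% and 7.81% of all genes, and the change differed between regimens for 0 genes by limma (0.00394% of all genes), with 2 at an unadjusted p under 0.05. These genes were named after their values were seen.

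Of 16 other genes of the pathway, 3 were higher in daily mean, beside 4.13% of all genes. These were Por, the electron donor of all these enzymes (0.19 log2, limma adjusted p = 0.0247), Tef (0.35 log2, limma adjusted p = 0.00543) and Ephx1, the microsomal epoxide hydrolase (0.20 log2, limma adjusted p = 0.00454). The rhythm differed between regimens for 13 of the 16, beside 38.8% of all genes. The DRF and NRF peaks of Por were at 0.386 and 13.0 h, those of Nr1i3, which encodes CAR, at 2.24 and 12.0 h, and Alas1, the first enzyme of haem synthesis, at 3.68 and 14.3 h. The PAR bZIP genes Dbp, Tef and Hlf peaked at 0.379, 0.502 and 2.69 h in daytime-fed animals and at 10.6, 13.0 and 13.2 h in nighttime-fed ones, and their antagonist Nfil3 at 11.7 and 22.3 h. These 7 were the phase-inverted ones of the 10 pathway genes rhythmic under both regimens, beside 50.9% of all dual-oscillating genes. The other 3, Cyb5a, Rxra and Hnf4a, shifted by 7.42, 7.16 and 6.34 h. The receptor genes for PXR (Nr1i2) and AHR (Ahr) were rhythmic under a single regimen, NRF and DRF respectively.

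Per kilobase of exon, the highest mean levels over both regimens were those of Cyp2e1 (2172 scaled counts per kilobase), Cyp2c68 (1419), Cyp2b9 (1067), Cyp2c54 (1006), Cyp2c70 (927) and Cyp2c69 (877). At the other end Cyp2d12 was at 0.0274. Mean levels were at least 100 scaled counts for 32 genes and under 1 for 5. The length used by the authors could not be checked for Cyp2e1, Cyp2c68 and Cyp2c69 among these, and 8.83% of Cyp2c68 windows are shared with other genes.

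Animals of the same group differed more in Cyp3a16 than in most of the other genes, with a within-group SD of 1.56 log2 against a median of 0.22 over the 49 genes. Cyp3a16, known from fetal and young liver and named after its values were seen, had means of 181 and 186 scaled counts (-0.05 ± 0.43 log2, limma adjusted p = 0.972). Its deviations from the group means, over 56 livers, were compared with those of the 10 other female-predominant genes by 100000 permutations within groups. Cyp3a41a tracked it with Pearson r = 0.909 and Spearman rho = 0.888 (permutation p = 1e-05 for both, the smallest they can give, adjusted p = 3e-05 over 10 relations). Without the 2 libraries farthest out r was 0.876, and it was 0.886 within DRF and 0.921 within NRF. Cyp3a44 tracked it with r = 0.790 and rho = 0.816 (permutation adjusted p = 3e-05), r = 0.804 without the 2 farthest libraries, 0.835 within DRF and 0.770 within NRF.

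The genes outside the CYP3A subfamily are given with their values within each regimen, and no difference between correlations was tested. Cyp2b9 had r = 0.539 and rho = 0.466 (permutation adjusted p of rho = 0.00697), and 0.434 without the 2 farthest libraries, 0.286 within DRF and 0.660 within NRF. Cyp2a4 had r = 0.462 and rho = 0.403 (permutation adjusted p = 0.00297 and 0.00916), with 0.609 within DRF and 0.378 within NRF. Cyp3a41b gave r = 0.917, but it shares most windows with Cyp3a41a. The other 5 genes did not pass over both regimens. Within DRF, Cyp2c69 had r = 0.799 and Cyp2c40 r = 0.361, and within NRF both were negative (-0.454 and -0.466). Cyp2b10, Cyp2b13 and Cyp2c39 ran from -0.224 to -0.0359 within DRF and from 0.447 to 0.611 within NRF. Without NRF ZT0 replicate 1, the values within NRF were -0.225 for Cyp2c69, -0.221 for Cyp2c40, 0.186 for Cyp2b13, 0.123 for Cyp2c39, 0.496 for Cyp2b10, 0.390 for Cyp2b9 and 0.256 for Cyp2a4, against 0.855 for Cyp3a41a and 0.763 for Cyp3a44. Cyp3a16 shared 0% of its windows with other genes.

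**Figure D5:**
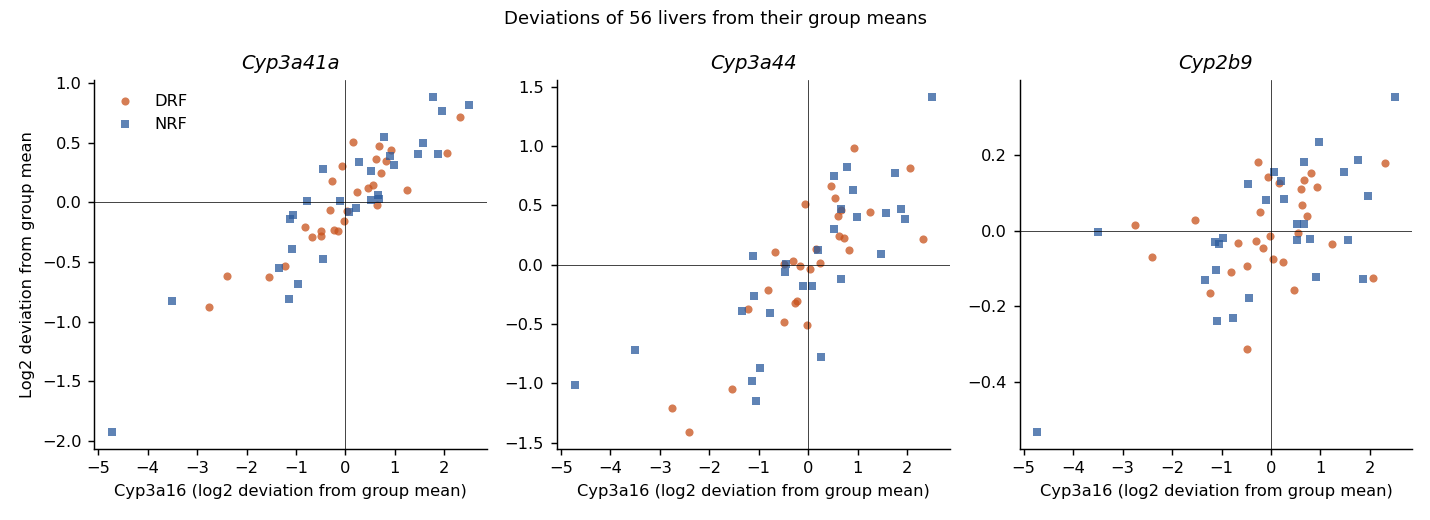
Deviations of 56 livers from their group means, in log2 scaled counts, for Cyp3a16 (horizontal) against Cyp3a41a, Cyp3a44 and Cyp2b9 (vertical, 1 panel each), with DRF as circles and NRF as squares. Animals high in Cyp3a16 were also high in Cyp3a41a (r = 0.909) and Cyp3a44 (r = 0.790), and the point at the far left is NRF ZT0 replicate 1, with 0.387 scaled counts of Cyp3a16.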

How the data were processed

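RNA was sequenced from 56 mouse livers. Per the labels, ribosomal RNA was depleted and libraries were strand-specific, while the molecule field names polyA RNA. The submitters' processing notes name CASAVA 1.8, featureCounts 1.5.0-p3 and the builds mm10 and GRCm38.p6. How multi-mapped reads and strand were treated in counting is not given in the sources used here. The authors deposited a gene table named TPM, whose values are not linear and are treated as a score: multiplied by exon length (GENCODE vM21), a value equals a·ln(1 + f·k), where k is a whole count and both a and f are constants of the library. These constants were estimated from 10853 genes. In 10852 genes left out of the fit, 98.7% to 100% of values, depending on depth, lay within 0.05 of a whole number. This gave 25410 of 25415 genes, of which 24247 of 24268 Ensembl identifiers matched the annotation. For Cyp2c29, Cyp2c50, Cyp2c68, Cyp2c69, Cyp2e1 and Cyp3a11 the counts were too high for the length to be judged, and a wrong length would stretch or compress their differences. Recovered counts averaged 514 M per library, so they are not called reads.

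Scaled counts are f·k, 304 to 723 recovered counts per unit. A filter at a mean deposited value of 0.1 removed 0 genes. All tests used limma 3.58.1 (R 4.3.3) on log2(scaled count + 1) over all genes, with trend and Benjamini-Hochberg adjustment at 0.05. One fit had 14 group means and the other a mean, cosine and sine per regimen. A design written for linear TPM was applied to scaled counts, and the scripts were tested on simulated data. Replicates of a group are different animals, correlated at 0.965 to 0.990 across genes, and the labels give no sequencing batch. The members and gene lists were chosen with earlier results of these data known. Named were the 8 genes with the largest called daily mean difference, the 8 with the smallest adjusted p for the rhythm difference, the 6 with the highest level per kilobase, and 11 of known role. Alternatives were median-of-ratios scaling, the deposited scale, a pseudocount of 0.1, other filters, a correction for exon length, an exact rank test of rhythms with 12 templates 2 h apart, a replicate block, and leaving out replicates or times. The transcript and circRNA tables were not used here.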

Additional observations from a re-analysis of the deposited data

Results flagged for a closer look

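Single animals lay far from the other 3 of their group in 17 of 322 groups of the 23 genes named by rule, 5.28%, where chance marks about 1 group in 20. Values are scaled counts. Cyp2a5 held 3 of them. Under DRF its lowest animal had 918 (others 1042 to 1049) at ZT4 and 674 (others 953 to 1002) at ZT8, and under NRF its highest had 1013 (others 487 to 557) at ZT8. Cyp2c70 had a low animal at ZT0 under DRF, 1099.7 (others 1197 to 1216), and at ZT12, 1707 (others 2307 to 2425). Cyp3a11 had a low animal at ZT20 in each regimen, 2512 (others 3055 to 3102) under DRF and 2012 (others 2599 to 2686) under NRF. Cyp3a25 had a high animal under NRF at ZT0, 1203 (others 913 to 955), which is the library that stood apart for the female-predominant genes, and a low animal at ZT20, 1093 (others 1243 to 1267). Cyp3a44 had a low animal under DRF at ZT0, 21.1 (others 76.8 to 85.9), and a high animal under NRF at ZT4, 322 (others 143 to 173). In Cyp3a59 the highest animal of NRF ZT20 had 154 (others 97.5 to 106). Cyp2a22 reached 104 (others 61.7 to 67.3) in 1 animal of DRF ZT8. The remaining animals were those of Cyp2c55 at NRF ZT16, 15.4 (others 11.3 to 11.9), Cyp2c68 at DRF ZT16, 2784 (others 3015 to 3039.9), Cyp2e1 at NRF ZT24, 2562 (others 3286 to 3352), and Cyp2f2 at DRF ZT4, 1244 (others 1020.1 to 1036).

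In 5 of the 23 genes named by rule the difference between regimens changed sign with the time of day. Each had calls in both directions and a rhythm difference past the threshold (limma F test). Cyp2a5 was higher under DRF at ZT0, ZT4 and ZT24 and lower at ZT12, ZT16 and ZT20 (adjusted p = 6.53e-15). Cyp2e1 was higher at ZT0 and ZT24 and lower at ZT8, ZT12 and ZT16 (adjusted p = 2.17e-10). Cyp2c70 was higher at ZT12 and lower at ZT0, ZT4 and ZT24 (adjusted p = 9.7e-10). Cyp2g1 was higher at ZT0 and lower at ZT8 and ZT12 (adjusted p = 4.48e-10), and Cyp2c55 was higher at ZT12 and lower at ZT24 (adjusted p = 3.55e-06). Outside the 23 genes, Cyp1a1 met the same conditions, being higher at ZT8 and lower at ZT16 (limma F test, adjusted p = 6.65e-05).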

How the results depend on the processing

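Of 216 recomputed counts and shifts, 191 stayed within 1.5 times the reported value. On the values as deposited, without recovery of linear counts, 9 of the 49 genes differed at ZT4, 10 at ZT8, 10 at ZT16 and 6 at ZT20, the rhythm differed for 12, the median shift was 2.29 h over 22 dual-oscillating genes, and ZT24 differed from ZT0 for 9 genes under DRF and 32 under NRF. With a correction for exon length the last 2 counts were 7 and 9. With median-of-ratios scaling, and likewise with a pseudocount of 0.1, ZT24 differed from ZT0 under DRF for 1 gene. Without NRF ZT0 replicate 1, an alternative chosen after seeing the data, 3 genes differed between ZT24 and ZT0 under NRF. The causes of these changes were not tested. Shares over all genes are not given for the alternatives in this section, so these counts cannot be read as particular to the P450 genes.

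The numbers of the replicates did not pair the samples. Over 28 pairs of libraries with the same number and time, deviations from the group means correlated between -0.145 and 0.0845 (median -0.0059), and 6 of 28 DRF libraries correlated best with their own number. With the replicate number as a block, ZT24 differed from ZT0 under DRF for 1 gene, and no other count moved by over 1.5 times.

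Leaving out each replicate number in turn gave 12 to 18 genes at ZT0, 9 to 12 at ZT4, 11 to 15 at ZT8, 10 to 14 at ZT12, 9 to 12 at ZT16, 6 to 9 at ZT20 and 10 to 11 at ZT24. The daily mean differed for 19 to 25 genes, the rhythm for 19 to 21, and rhythms passed for 18 to 27 genes under DRF and 17 to 26 under NRF. Between ZT24 and ZT0, 0 genes differed under DRF and 0 to 1 under NRF. The median shift ran from 5.72 to 7.22 h. The low end of the counts at ZT4, ZT16 and ZT20 came without replicate 4, replicate 3 and replicate 2 respectively, and that of the longest shift without replicate 2.

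Of 322 recomputed daily means of the 23 genes named by rule, 306 kept their direction and side of the threshold, 16 lost the call and none changed direction while called. The lost calls were those of Cyp2b9 (values as deposited), Cyp2c69 (values as deposited, and without replicate 1 or 3), Cyp2f2 (values as deposited, with the correction for exon length, and without replicate 1, 3 or 4) and Cyp2g1 (values as deposited, pseudocount 0.1, without ZT24, and without any 1 replicate number). Low levels limit some of these results: 5 genes had a mean under 1 scaled count, where log2(scaled count + 1) understates changes most. It also understates them at a few scaled counts, as for Cyp1a1 (means 2.15 under DRF and 3.62 under NRF) and Cyp2g1 (2.56 and 3.19).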

Other observations

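Other genes of these families, named after their values were seen, filled out the picture. Cyp2c23, a kidney and liver epoxygenase of arachidonic acid, was lower under DRF, with a mean of 469 against 606 scaled counts (-0.38 ± 0.06 log2, limma adjusted p = 1.75e-05). Cyp2u1, a fatty acid hydroxylase, was lower too (-0.42 ± 0.08 log2, limma adjusted p = 0.000235), and 10.5% of its exon bases overlap a gene on the other strand. Cyp2c39 was higher (0.42 ± 0.06 log2, limma adjusted p = 3.26e-06), as were Cyp2c50 (0.34 ± 0.04 log2) and Cyp2c37 (0.26 ± 0.05 log2), both CAR targets. Cyp2r1, a vitamin D hydroxylase, had a difference of -0.08 ± 0.06 log2 that did not pass (limma adjusted p = 0.547). Cyp2j5, an abundant epoxygenase, had means of 1339 and 1402 scaled counts, a difference that did not pass, while its DRF peak lay at 15.5 ± 0.581 h and its NRF peak at 20.8 ± 0.819 h (rhythm difference, limma adjusted p = 6.21e-05).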
